A study of Mus musculus with 18 samples.

Results

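Quercetin, a plant flavonol of the human diet, was given to mice on a Western-style diet, and the arrays of each diet group carried replicate numbers 1 to 6. The question here was whether the quercetin difference in liver RNA was the same on the arrays numbered 4 to 6 as on those numbered 1 to 3. It is an interaction: the difference between the quercetin and the Western group on arrays 4 to 6, minus the same difference on arrays 1 to 3. It uses 12 of the 18 arrays in the series, 3 for each of the 4 combinations of diet and replicate set, and was fitted for all 18193 measured genes. All mice were male C57BL/6J, 5 weeks old on arrival, given 1 week on a standard diet and then fed their assigned diet for 20 weeks. The Western group received a diet in which sucrose supplied 34.0% and fat 39.9% of the energy, mostly as butter, with 0.15% added cholesterol. The quercetin group received that diet with 0.05% quercetin. The other 6 arrays, from mice on the purified control diet AIN93G, entered the normalization and are shown for reference only. Control arrays 4 and 5 were nearly identical and were averaged as 1 sample (n = 5).

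Each array held the liver RNA of 1 mouse. The labels give 3 mice per cage but neither which mice shared a cage nor what a replicate number stands for, so the sets are no named batch. Cage, order of collection or any other property that follows the numbers cannot be told apart from the set. All levels below are log2(value + 16) of the deposited signal after quantile normalization, so 1 unit is a doubling of value + 16, and folds of dim genes are understated. Trimmed mean signals of the 12 arrays ran from 80.7 to 102.5. The 3'/5' actin log2 ratio, a measure of RNA integrity, ran from 0.39 to 0.68, with an interaction of -0.10 (exact permutation test, two-sided, p = 0.39). The log2 signal of the 18S ribosomal RNA probe sets ran from 4.83 to 8.32, highest on quercetin array 3 (6.83 on the next), with an interaction of -1.49 (same test, exact p = 0.25). The smallest exact p over the 5 such measures was 0.25, unadjusted. Defining hepatocyte markers were high on every array, with a mean level of the list (9 of 12 genes measured) between 12.26 and 12.38. Along the first principal component, which carried 22.6% of the variance, the 2 extreme arrays were quercetin 2 and quercetin 6, 1 in each replicate set, at -22.5 and 24.6.

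By way of background, the liver turns surplus carbohydrate into fatty acids and makes cholesterol, and both programmes are under transcription factors of the SREBP family that respond to insulin and to sterols. In fasting the liver instead breaks down amino acids and makes glucose, under glucocorticoids and glucagon. Many genes of both programmes also vary over the day with the circadian clock.

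Zbtb16 was the single gene that passed the test of the interaction. It encodes a zinc finger transcription repressor known as PLZF. In replicates 1 to 3 its level was 6.46, 6.62 and 6.37 in the Western group and 5.90, 5.79 and 5.26 in the quercetin group. In replicates 4 to 6 it was 6.42, 6.14 and 6.15 in the Western group and 7.17, 7.36 and 7.38 in the quercetin group. The groups did not overlap in either set, with quercetin below Western in the first and above it in the second. The quercetin difference was -0.83 on the log2 scale in replicates 1 to 3 (95% interval -1.17 to -0.49) and 1.07 in replicates 4 to 6 (0.73 to 1.41). The interaction was 1.90 ± 0.22 (SE; limma, adjusted p = 0.0385), a ratio of 3.73 between the 2 fold changes. Of the 18193 genes 0.0055% were called, which is this gene alone. The control samples had 7.77, 7.45 and 6.97 in replicates 1 to 3 (mean 7.39). In replicates 4 to 6 they had 6.94 and 6.62 (mean 6.78). The quercetin arrays 4 to 6 lay within the range over both control sets but above the control samples of their own set. All other arrays on the Western-style diet were at or below the lowest control value. The array read Zbtb16 with 2 dimmer probe sets as well, whose interactions were 1.65 (unadjusted p = 5.48e-05) and 0.49 (unadjusted p = 0.103). The call was lost without any 1 of the 6 Western arrays, without quercetin array 2, 4, 5 or 6, and without quercetin arrays 2 and 6 together (1.93, adjusted p = 0.211). With limma it was also lost with the values as deposited (adjusted p = 0.373), a pseudocount of 1 (0.21), the mean of the probe sets (0.185), all 3 diet groups in the fit (0.081), the actin ratio as a covariate (0.104) and the replicate number as a block (0.194). In all, it passed in 7 of 24 alternatives, with adjusted p from 0.0166 to 0.373. The interaction lay between 1.71 and 2.02 over the single omissions and between 1.22 and 2.34 over all alternatives, where both ends came from another pseudocount.

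Lpin1 came next in rank and lay just outside the threshold. Its product, lipin 1, converts phosphatidic acid to diacylglycerol on the way to triglyceride and also acts as a transcriptional coactivator in fasting. The Western arrays 1 to 3 had 9.08, 9.38 and 9.24 against 8.33, 8.52 and 8.57 with quercetin. The Western arrays 4 to 6 had 8.85, 8.85 and 8.06 against 10.48, 10.51 and 9.73 with quercetin. Again the groups were apart in both sets and in opposite order. The quercetin difference was -0.76 in the first set and 1.66 in the second, an interaction of 2.42 ± 0.33 (SE; limma, adjusted p = 0.0997). A second probe set of the gene gave 2.46. Control samples ran from 9.65 to 10.91, a range that holds the 3 quercetin arrays 4 to 6 and none of the other Western-diet arrays. That range pools both sets: the control mean was 10.4 in replicates 1 to 3 and 9.79 in replicates 4 to 6.

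**Figure D1:**
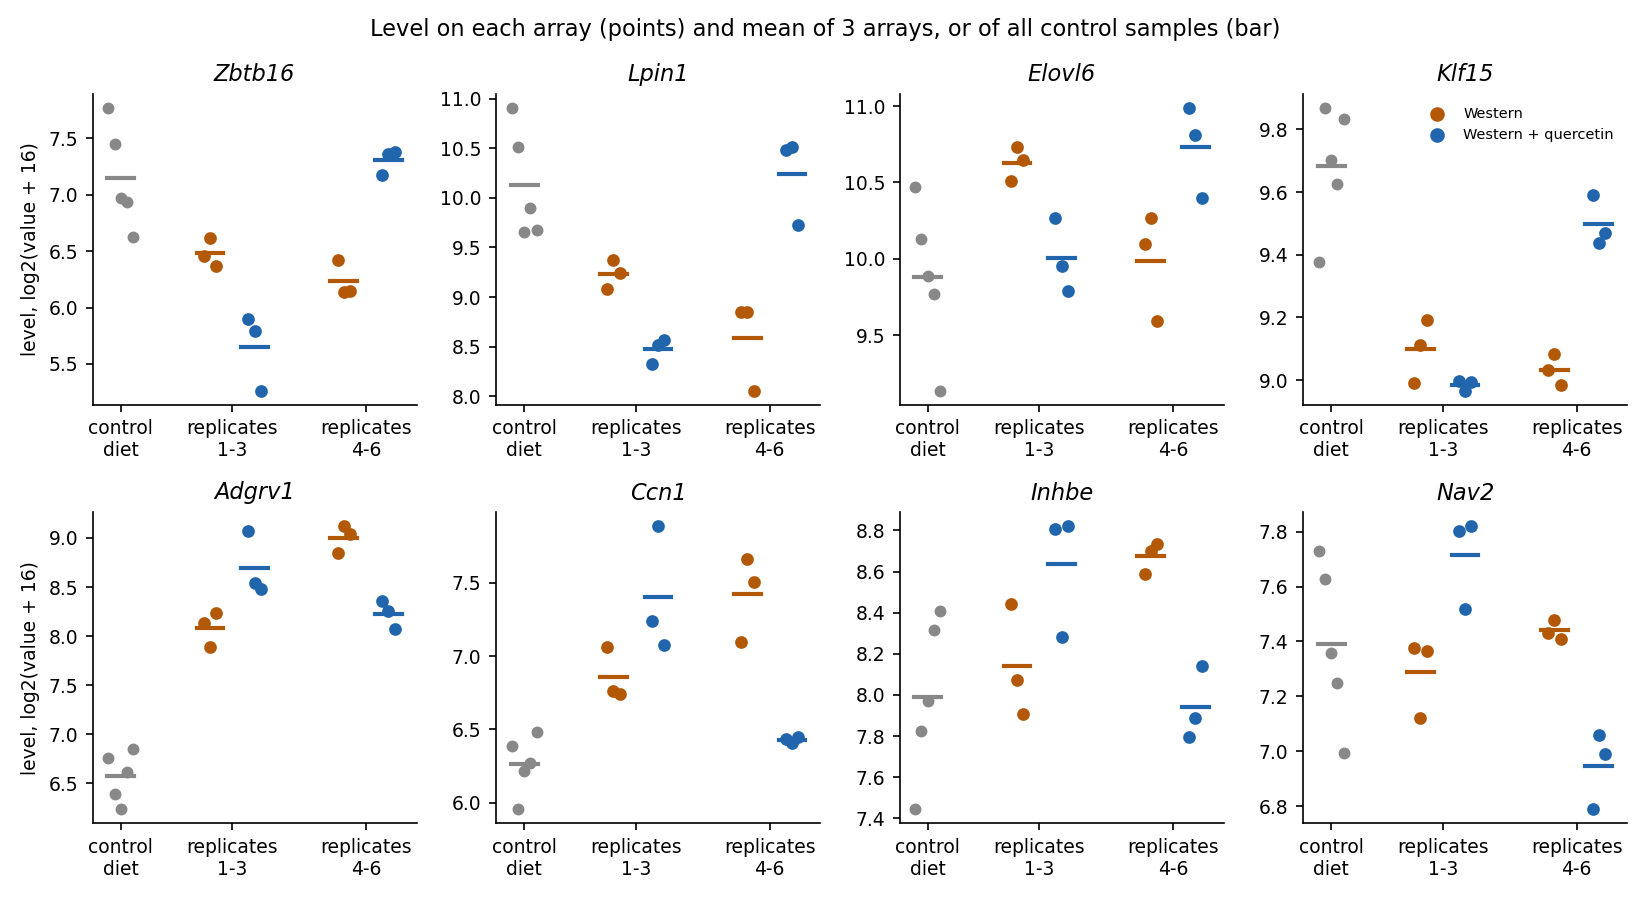
Level of 8 genes, log2(value + 16), on each array: control diet in grey, Western in orange, Western with quercetin in blue, the last 2 split into replicates 1-3 and 4-6; each point is an array (control 4 and 5 averaged) and each bar a mean. The blue points lie below the orange in replicates 1-3 and above them in replicates 4-6 for Zbtb16 (5.26 to 5.90, then 7.17 to 7.38) and Lpin1, and the order is turned around for Adgrv1, Ccn1 and Nav2.

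Over all genes the interaction was small and balanced. Its median was -0.0072, and the 10th and 90th percentiles were -0.31 and 0.28. It was positive for 8838 genes and negative for 9355. An unadjusted p under 0.05 was reached by 921 genes (5.06%), where 909.65 would be expected with no differences at all, 438 of them higher (2.41%) and 483 lower (2.65%). Here higher means that the quercetin difference was larger, or less negative, in replicates 4 to 6. A change of at least 1 log2 unit was seen for 44 genes, 24 higher and 20 lower. The unadjusted 95% interval of a gene reached 0.44 to either side at the median over genes, and it was narrower or wider for single genes.

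Taken separately, neither set gave a called gene for quercetin against Western. In replicates 1 to 3 limma called 0 genes at an adjusted p under 0.05 and 750 had an unadjusted p under 0.05 (4.12%). In replicates 4 to 6 it called 0 and 1025 had such a p (5.63%), with Lpin1 and Zbtb16 sharing the smallest adjusted p (0.185). The 2 differences come from separate arrays, and across the 18193 genes their correlation was -0.08, with the same sign for 47.2% of genes. Genes are not independent replicates and this is a description. That weak correlation became 0.06 without Western array 2 and 0.02 without quercetin array 2. Among genes with an unadjusted p under 0.05 in both sets, 37 had the same direction and 55 the opposite one. Complete separation of the groups in both sets, in opposite directions, was found for 108 genes (0.594%), and in the same direction for 60 (0.33%).

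**Figure D2:**
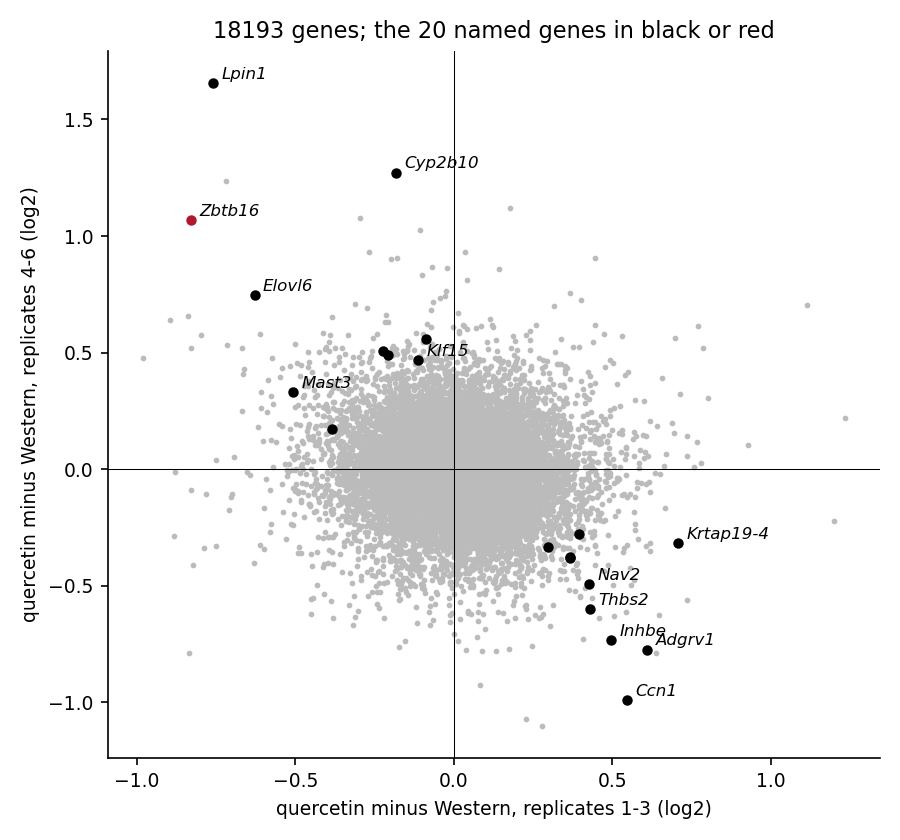
Quercetin minus Western (log2) in replicates 1-3 on the horizontal axis against the same in replicates 4-6 on the vertical axis for 18193 genes in grey, with the 20 named genes in black (the 10 of smallest interaction p in each direction among genes at or above the 25th percentile of level) and Zbtb16 in red. Lpin1 (-0.76, 1.66) and Zbtb16 (-0.83, 1.07) lie at the upper left, and Ccn1 (0.55, -0.99) is lowest among the named genes at the lower right.

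None of the further genes named for the interaction passed the test. They are the 10 with the smallest p in each direction among genes at or above the 25th percentile of level, Zbtb16 and Lpin1 included, and were chosen by that value. Of the 6 smallest p over all genes, 2 belong to genes below that level, Psg17 (0.83) and Tff2 (-1.06; limma, adjusted p = 0.279 for both). The diet groups did not overlap in replicates 4 to 6 for all 20 (12.6% of all genes), and in both sets with opposite order for 15 (0.594% of all genes). Choosing genes by the interaction favours such separation, so nothing is read from these counts. Elovl6, which lengthens palmitate in fatty acid synthesis, had 10.51, 10.73 and 10.65 on Western arrays 1 to 3 and 10.27, 9.96 and 9.79 on quercetin arrays 1 to 3. In the second set the Western arrays had 10.10, 10.27 and 9.60 and the quercetin arrays 10.99, 10.81 and 10.40. Its interaction was 1.38 ± 0.28 (SE; limma, adjusted p = 0.489). The arrays split cleanly by diet in each set, with the order turned around. Dimmer probe sets of Elovl6 gave 1.23 (mean level 9.17) and -0.08 (mean level 6.92).

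The other genes with a positive interaction had sizes between 0.56 and 1.45 and adjusted p from 0.314 to 0.661. Mast3, a microtubule-associated kinase, had 0.84. Klf15, a transcription factor of amino acid breakdown and glucose production, stood at 8.97 to 8.996 on quercetin arrays 1 to 3 and 9.44 to 9.59 on quercetin arrays 4 to 6, while the 6 Western arrays lay between 8.99 and 9.19. Asl, the urea cycle enzyme argininosuccinate lyase, followed the same course: 10.38 to 10.42 and then 11.09 to 11.29 with quercetin, against 10.29 to 10.65 on the Western arrays. For both genes the quercetin difference in replicates 1 to 3 was small (-0.11 and -0.09) and the groups overlapped there. Cyp2b10, a drug-metabolising P450 induced through the receptor CAR, was near the dim end of the scale at 4.32 to 5.18 on quercetin arrays 1 to 3 and reached 5.89 to 6.57 on arrays 4 to 6, an interaction of 1.45. Arhgap32 had 0.70, Cdip1 0.73 and Mta1 0.56. Dimmer probe sets gave -0.07 and -0.01 for Arhgap32, 0.68, 0.66 and -0.125 for Cdip1 and 0.03 for Mta1.

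On the negative side the adjusted p ran from 0.279 to 0.734. Adgrv1, a large adhesion receptor, had 8.13, 7.89 and 8.24 in the Western group and 9.07, 8.54 and 8.48 with quercetin in replicates 1 to 3. In replicates 4 to 6 it had 8.85, 9.12 and 9.04 in the Western group and 8.36, 8.26 and 8.07 with quercetin. The interaction was -1.39 ± 0.23 (SE; limma, adjusted p = 0.279), and all 12 arrays lay above the control samples (6.24 to 6.85). Ccn1, a secreted matrix protein, had 6.44, 6.41 and 6.45 on quercetin arrays 4 to 6, within the control range of 5.96 to 6.48, against 7.09, 7.67 and 7.51 on Western arrays 4 to 6. On arrays 1 to 3 it had 7.06, 6.76 and 6.74 in the Western group and 7.24, 7.89 and 7.08 with quercetin, for an interaction of -1.54 ± 0.28 (SE; limma, adjusted p = 0.356). Quercetin arrays were thus above Western in one set and below in the other, as for Adgrv1.

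Inhbe, which encodes the hepatokine subunit inhibin beta E, had an interaction of -1.23 (limma, adjusted p = 0.453), and its groups overlapped in replicates 1 to 3 but not in 4 to 6. Nav2, a neuron navigator protein, had -0.92 (limma, adjusted p = 0.325) and Thbs2, the matrix protein thrombospondin 2, had -1.03. Thbs2 was dim (mean level 4.88), and its other probe sets, at 4.87 and 4.78, had -0.03 and 0.02. Krtap19-4 (-1.02), Rell1 (-0.63), the metalloreductase gene Steap3 (-0.75), Themis (-0.74) and Zfp710 (-0.67) complete the 10. Dimmer probe sets gave -0.02 and -0.27 for Steap3 and 0.20 for Zfp710, while those of Rell1 and Themis were negative. Krtap19-4 was close to the dim level, with 4.13 to 5.11 over the 12 arrays.

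The interaction is by construction also the difference between the replicate sets within the quercetin group minus the difference within the Western group, and the sets differed more in the former. Between quercetin arrays 4 to 6 and 1 to 3, limma called 23 genes (0.126%), 17 higher (0.0934%) and 6 lower (0.033%) in replicates 4 to 6, and 2066 genes had an unadjusted p under 0.05 (11.4%). With the array medians centred instead, the split was 40 higher and 3 lower, and with the values as deposited 11 and 0. Between Western arrays 4 to 6 and 1 to 3 limma called 0 genes, and 1478 had an unadjusted p under 0.05 (8.12%, smallest adjusted p 0.0953). Called in one diet group and not in the other is no test of a difference, which the interaction itself gives, and there Zbtb16 alone was called. An unadjusted interaction p under 0.05 was found for 15 of the 23 genes (5.06% of all genes), but the quercetin set difference that chose them is a term of the interaction, so nothing is read from that count. The count of 23 rested on few arrays and was 1 without quercetin array 2, 1 without quercetin array 4, and 1 without quercetin arrays 2 and 6. Without both, an unadjusted limma p under 0.05 was reached by 1502 genes between the quercetin sets and 1515 between the Western sets. The quercetin sets then held fewer arrays than the Western sets.

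Among the 17 higher genes were Lpin1 (1.77), Usp2 (1.67), Zbtb16 (1.65), the sodium-calcium exchanger gene Slc8a1 (1.40) and Nrg4 (1.32), a secreted ligand of the ErbB family. Sgk2 (-0.84), Nav2 (-0.77), Gclc (-0.76), Ncoa5 (-0.71) and Rell1 (-0.60) were among the 6 lower. Usp2 encodes a clock-controlled deubiquitinase, and Gclc the catalytic subunit of the rate-limiting enzyme of glutathione synthesis. Within the Western group 19 of the 23 had the same sign and none was called, with Usp2 at 1.13, Nrg4 at 0.57 and Gclc at -0.42. In the control group, with 3 samples against 2, 19 of the 23 had the sign seen with quercetin, with Usp2 at 3.05 and Nrg4 at 1.33. The share of all genes with a shared sign is not given here, so nothing is read from either count. Lpin1 and Zbtb16 were different: the sets differed by -0.65 and -0.25 in the Western group and by -0.57 and -0.62 in the control group, opposite to the quercetin group.

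**Figure D3:**
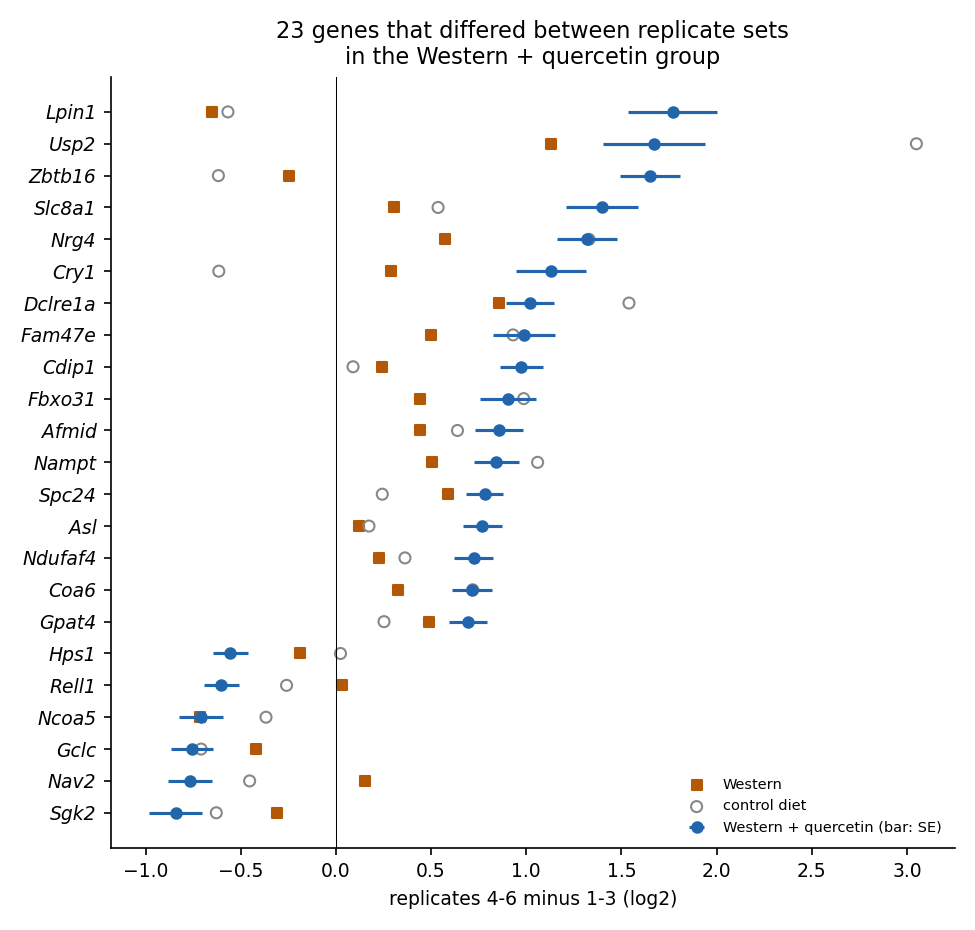
Difference between replicates 4-6 and 1-3 (log2) for the 23 genes called within the Western with quercetin group (blue, bars are SE), with the same difference in the Western group (orange squares) and the control group (open grey circles; 3 samples against 2). Lpin1 and Zbtb16 are positive only in blue (1.77 and 1.65), while Usp2 is positive in all 3 groups (1.67, 1.13 and 3.05).

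Genes of cholesterol and fatty acid synthesis had positive interactions as a group, none of them called. Of 20 measured genes of cholesterol synthesis and uptake, 19 had a positive interaction (8838 of all 18193 genes). An unadjusted p under 0.05 was reached by 8 positive and 0 negative ones (background 2.41% and 2.65%). The median of the 20 was 0.39, from a median quercetin difference of -0.26 in replicates 1 to 3 and 0.16 in replicates 4 to 6. Msmo1, a sterol demethylation enzyme, had 8.96, 8.88 and 8.67 in the Western group and 8.62, 8.27 and 8.28 with quercetin in the first set. In the second set it had 8.73, 8.65 and 8.43 against 8.91, 8.92 and 9.23, so that the groups were apart in both and in opposite order (interaction 0.86 ± 0.20, SE; limma, adjusted p = 0.661). Dhcr7, which completes cholesterol synthesis, had the same pattern with 0.81. Pmvk, an enzyme of the mevalonate pathway, had 0.71, and Insig1, the sterol-sensing partner that holds SREBP in the endoplasmic reticulum, had 0.65 (limma, adjusted p = 0.794 for all 3).

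Averaged over the 20 genes, the level was 8.54, 8.55 and 8.39 on Western arrays 1 to 3 and 8.12, 8.17 and 7.95 on Western arrays 4 to 6. With quercetin it was 8.32, 8.24 and 8.11 and then 8.33, 8.28 and 8.05. The shift between sets was on the Western side: the median set difference of these genes was -0.36 in the Western group and -0.0009 in the quercetin group. The quercetin arrays of the first set lay below all Western arrays of that set, while those of the second set overlapped with theirs.

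Fatty acid synthesis was alike, with 18 of 21 genes positive, 8 with an unadjusted p under 0.05, 0 negative with such a p, and a median of 0.25. Over all genes 8838 of 18193 were positive, and 2.41% were positive and 2.65% negative with such a p. Acly, which makes cytosolic acetyl-CoA from citrate, had 11.25, 11.62 and 11.87 in the Western group and 11.20, 10.99 and 10.40 with quercetin in replicates 1 to 3. In replicates 4 to 6 it had 10.59, 10.72 and 10.22 against 11.16, 11.13 and 10.83. The diet groups did not overlap in either set, and the interaction was 1.25 ± 0.31 (SE; limma, adjusted p = 0.734). Thrsp, a lipogenic regulator, had 1.05 and Acss2, an acetyl-CoA synthetase, 0.98. Dimmer probe sets ran from -0.54 to 1.53 for Acly and gave 1.41 and -0.30 for Thrsp, while those of Acss2 were positive. As with the sterol genes, the median set difference lay on the Western side (-0.28, against 0.04 with quercetin).

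Of 29 genes of lipid droplets and fat storage, 4 were positive and 2 negative with an unadjusted p under 0.05 (2.41% and 2.65% of all genes). The median was -0.14. The negative count was 6 without Western array 6, 5 without quercetin array 5, 4 without Western array 1 and 0 without Western array 5. Beside Lpin1, the glycerol phosphate acyltransferase gene Gpam had 0.53 and the lipase-like Pnpla3 had 1.35, whereas the droplet coat gene Plin4 had -1.14 (limma, adjusted p = 0.892, 0.935 and 0.935). Fatty acid oxidation had 0 positive and 3 negative of 27 at that p, led by Aldh3a2 (-0.46), Vnn1 (-0.37) and Hadha (-0.34), with a median of -0.03. Aldh3a2 and Vnn1 are known targets of PPAR-alpha, and Hadha is part of the beta-oxidation complex of mitochondria.

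**Figure D4:**
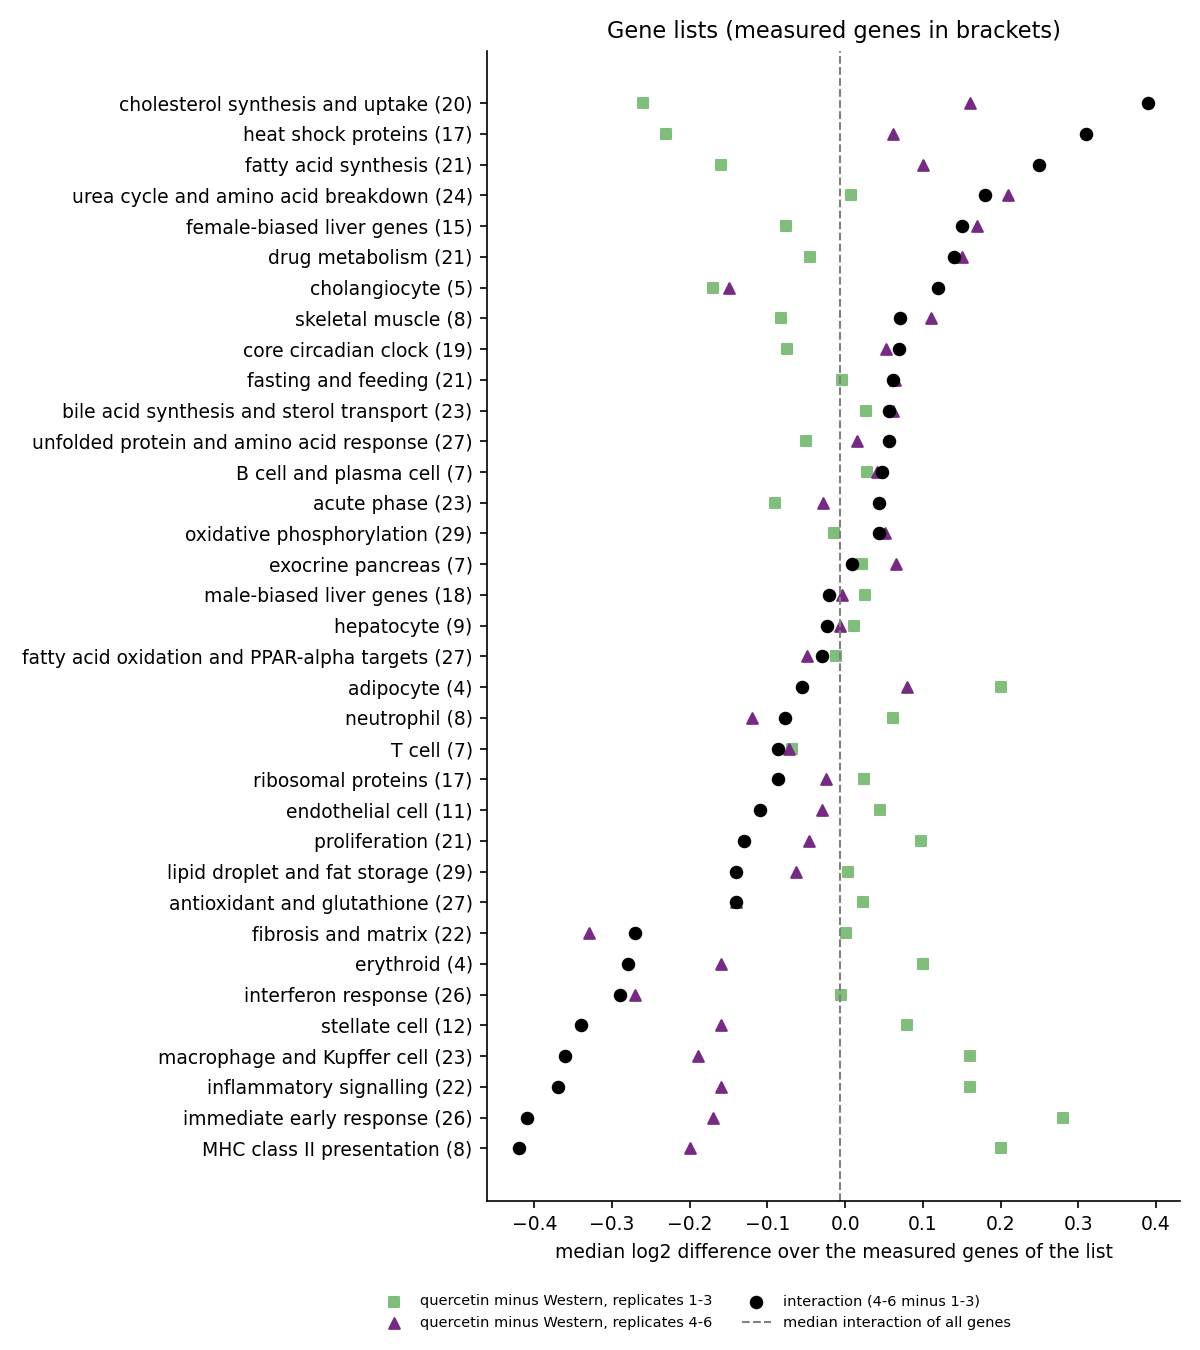
Median log2 difference over the measured genes of each of 35 lists: quercetin minus Western in replicates 1-3 (green squares), in replicates 4-6 (purple triangles) and the interaction (black circles), with the dashed line at the median interaction of all genes (-0.0072). Cholesterol synthesis and uptake is at the top with 0.39 and MHC class II presentation at the bottom with -0.42.

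Genes of fasting and of amino acid breakdown were mixed, with a few large positive interactions and none called. Of 24 genes of the urea cycle and amino acid breakdown, 4 were positive and 0 negative with an unadjusted p under 0.05 (2.41% and 2.65% of all genes). Their median was 0.18, and 2 were positive at that p without quercetin array 3 or 4. Got1, an aspartate aminotransferase, had 9.48, 9.77 and 9.61 on quercetin arrays 1 to 3 and 10.79, 10.62 and 10.01 on arrays 4 to 6, while the Western arrays ran from 9.41 to 10.01. Tat, tyrosine aminotransferase, had an interaction of 0.93 and Ass1, the urea cycle partner of Asl, had 0.51. Of the 21 genes of the fasting and feeding list, 13 had a positive and 8 a negative interaction with a median of 0.06, and 4 were positive and 0 negative at that p. These 4 include Lpin1 and Tat, which also stand in other lists here. Igfbp1, an insulin-repressed binding protein of IGF-1, had 10.13, 10.48 and 10.86 against 8.97, 10.46 and 9.87 with quercetin in the first set, and 9.84, 9.50 and 9.38 against 11.16, 10.91 and 10.37 in the second. Its groups overlapped in the first set only, and the interaction was 1.96 ± 0.47 (SE; limma, adjusted p = 0.734). Ppp1r3g, a glycogen-targeting subunit of protein phosphatase 1, had 1.04. On the negative side, with no such p, the hormone gene Fgf21 had -0.80, the insulin receptor substrate gene Irs2 -0.47, Ppp1r3c -0.43 and the pyruvate dehydrogenase kinase gene Pdk4 -0.17. These genes fall outside the naming rule and were chosen after their values were seen.

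The core clock list was divided, with 3 of 19 genes positive and 2 negative at an unadjusted p under 0.05 (2.41% and 2.65% of all genes). Its median of 0.07 became -0.03 with the values as deposited. The positive count was 5 without quercetin array 5 and 1 without quercetin arrays 2 and 6. Cry1, a repressor of the clock, had 0.84 and Per2, another repressor, 0.80. Bhlhe40 had -0.63 and Nr1d1, the nuclear receptor REV-ERB alpha, had -0.98. On Nr1d1 the quercetin arrays ran from 7.24 to 7.77 in replicates 1 to 3 and from 5.94 to 6.65 in replicates 4 to 6, and the Western arrays from 6.502 to 7.39 over both. Limma's adjusted p was 0.794 for Bhlhe40, 0.847 for Cry1, 0.884 for Nr1d1 and 0.935 for Per2. No time of day of collection is given in the labels, and its part in the result was not tested.

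Of 21 genes of drug metabolism, 2 were positive and 1 negative with an unadjusted p under 0.05 (2.41% and 2.65% of all genes). Cyp2b10 led, followed by the sulfotransferase gene Sult1d1 (0.70), and Cyp1a1 had -0.50. Bile acid synthesis and sterol transport had 2 positive and 1 negative of 23 at that p. Nr0b2, the repressor SHP that restrains bile acid synthesis, had 0.93, the uptake carrier gene Slco1a4 had 0.51 and the phospholipid exporter gene Abcb4 had -0.42. Antioxidant and glutathione genes, often examined in work on quercetin, had 0 of 27 with an unadjusted p under 0.05 and a median of -0.14. Heat shock protein genes were positive for 15 of 17 (8838 of all 18193 genes), with a median of 0.31 (0.21 to 0.46 over the single omissions). Dnajb4 (0.60) was the 1 gene with such a p, and its dimmer probe sets gave 0.18 and -0.16. The count of genes at that p was 6 without quercetin array 2, 5 without Western array 1 and 5 without quercetin arrays 2 and 6. It was 0 without Western array 3, 4 or 6 or quercetin array 1 or 4. Oxidative phosphorylation (0 of 29) and ribosomal protein genes (0 of 17) had none. Over the single omissions the counts ran from 2 to 4 positive and 0 to 1 negative for drug metabolism, 1 to 2 positive for bile acid synthesis and sterol transport, and 0 to 1 positive and 0 to 2 negative for the antioxidant genes.

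Immediate early, inflammatory and interferon genes lay on the negative side. Of 26 immediate early genes, which respond within minutes to growth factors and stress, 23 had a negative interaction and 6 an unadjusted p under 0.05, with 0 positive at that p and a median of -0.41. Of all 18193 genes, 9355 had a negative interaction, and 2.65% had one with such a p. Ier5 had 6.46, 6.81 and 6.60 on quercetin arrays 1 to 3 against 6.23, 6.07 and 6.23 on Western arrays 1 to 3, and 6.04, 6.00 and 6.27 against 6.16, 6.52 and 6.43 in the second set. Its groups were apart in the first set and overlapped in the second (interaction -0.71 ± 0.18, SE; limma, adjusted p = 0.734). Fosb had -0.62, Klf2 -0.46 and Dusp1, a phosphatase of MAP kinases, -0.86. Without quercetin arrays 2 and 6 the count at that p was 2, both among the 6, and the median was -0.29. The count was also 2 without quercetin array 2, quercetin array 6 or Western array 5 alone, 3 without Western array 3 and 10 without quercetin array 1.

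Interferon response genes were negative for 26 of 26 (9355 of all 18193 genes), with a median of -0.29. An unadjusted p under 0.05 was reached by 4 of them (2.65% of all genes in that direction). Their mean level was 7.26, 7.22 and 7.19 on quercetin arrays 4 to 6, below each of the other 9 arrays (7.27 to 7.64). Usp18, which restrains interferon signalling, had 7.12, 7.07 and 7.12 on those arrays against 7.50, 7.70 and 8.02 on Western arrays 4 to 6, and in the first set 7.41, 7.53 and 7.35 against 7.54, 6.95 and 7.24. The diet groups were apart in the second set only, with an interaction of -0.83 ± 0.22 (SE; limma, adjusted p = 0.775). Ifit1 had -0.59, Oasl2 -0.59 and Gbp2 -0.61. The genes of a list are read from the same 12 mice, so that a shared sign is not a count of independent observations. Without quercetin arrays 2 and 6 the median was -0.22 and the count at that p was 2. It was also 2 without quercetin array 2 or 6 alone, and 8 without Western array 1 or quercetin array 3.

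Of 22 genes of inflammatory signalling 6 were negative and 1 positive with such a p (2.65% and 2.41% of all genes), with a median of -0.37. Socs3, a feedback inhibitor of cytokine signalling, had 6.44, 6.25 and 5.85 on quercetin arrays 4 to 6 against 7.63, 7.18 and 6.95 on Western arrays 4 to 6, and overlapped in replicates 1 to 3 (interaction -1.30 ± 0.40, SE; limma, adjusted p = 0.844). The chemokine genes Cxcl10 and Ccl5 had -0.72 and -1.14. Without quercetin arrays 2 and 6 the count was 3 negative and 1 positive, and the median was -0.10 (-0.14 without quercetin array 2 alone). Without Western array 6 it was 3 negative and 0 positive.

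**Figure D5:**
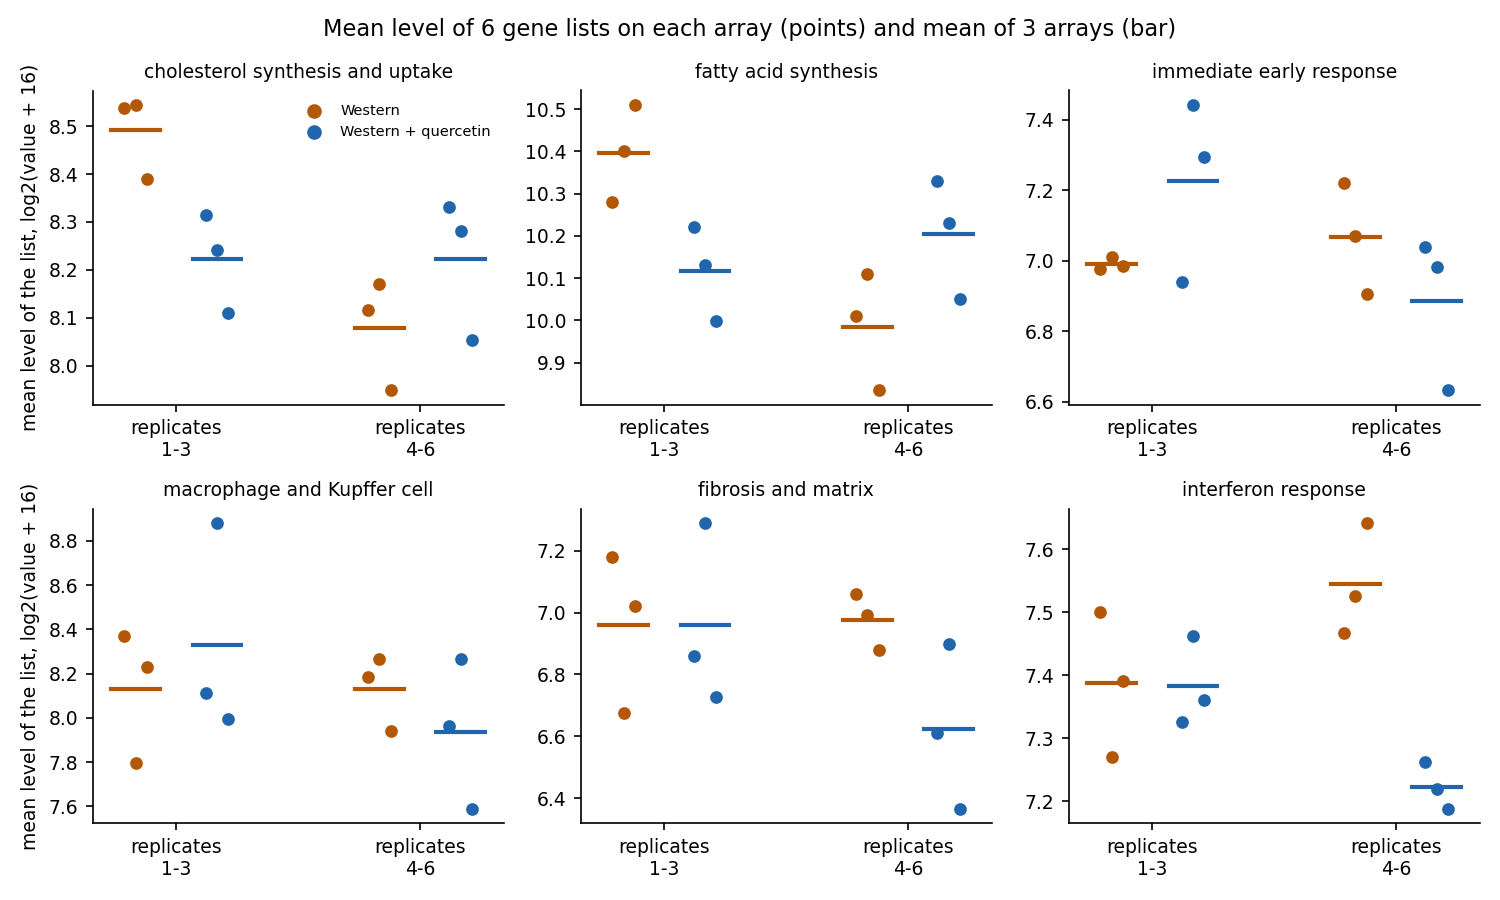
Mean level, log2(value + 16), of 6 gene lists on each array (points) with the mean of 3 arrays (bars), Western in orange and Western with quercetin in blue, by replicate set. Cholesterol and fatty acid synthesis are high on Western arrays 1-3 (8.39 to 8.55 and 10.28 to 10.51), interferon genes are low on quercetin arrays 4-6 (7.19 to 7.26), and quercetin 2 is highest (8.88) and quercetin 6 lowest (7.59) for macrophage markers.

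Markers of macrophages had a negative median as well, with none reaching an unadjusted p under 0.05. Of 23 measured macrophage and Kupffer cell markers (24 listed, none below the dim level), 19 had a negative interaction (9355 of all 18193 genes), and the median was -0.36. Their mean level ran from 7.80 to 8.37 on Western arrays 1 to 3, 7.997 to 8.88 on quercetin arrays 1 to 3, 7.94 to 8.26 on Western arrays 4 to 6 and 7.59 to 8.26 on quercetin arrays 4 to 6. The highest and lowest were quercetin 2 and quercetin 6, the arrays at the ends of the first principal component, and without them the median was 0.03 (-0.08 without quercetin 2 alone and -0.23 without quercetin 6 alone). Without both arrays the immediate early median was -0.29, the interferon median -0.22 and the inflammatory median -0.10. In liver RNA, fewer cells of a type and less RNA per cell cannot be told apart. The scavenger receptor genes Marco and Cd163 were on opposite sides (-1.42 and 0.78).

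MHC class II genes, which antigen-presenting cells express, were negative for 7 of 8 (9355 of all 18193 genes). Their median was -0.42, and -0.14 without quercetin arrays 2 and 6. None had an unadjusted p under 0.05, against 4 without quercetin array 5, 3 without quercetin array 3 and 1 without Western array 1. Fibrosis and matrix genes were negative for 21 of 22 with none at an unadjusted p under 0.05, though 5 had such a p without quercetin array 5, 4 without quercetin array 3 and 2 without Western array 1. Their median of -0.27 was -0.08 without quercetin arrays 2 and 6. Col1a1, a chain of type I collagen, had an interaction of -1.01 and was below the Western arrays on quercetin arrays 4 to 6 (6.02, 6.65 and 5.37 against 7.05, 7.07 and 6.71). A dimmer probe set of Col1a1, at a mean level of 5.06, gave -0.085. Stellate cell markers had a median of -0.34 and endothelial markers -0.11. Without quercetin arrays 2 and 6 these medians were -0.16 and 0.03, and without quercetin array 2 alone -0.25 and -0.0082. Of 12 stellate markers 1 was negative with an unadjusted p under 0.05 (0 to 4 over the single omissions). Of 11 endothelial markers 1 was positive (the sinusoidal Lyve1, 0.48) and 1 negative (Pecam1, -0.42) at that p. The shares over all genes were 2.41% positive and 2.65% negative. A dimmer probe set of Lyve1 gave 0.001. The B cell gene Ighm had 1.54 and Cd79b -0.50, with a median of 0.05 over 7 markers. Dimmer probe sets of Ighm ran from -0.20 to 0.997. The medians of the sterol and fatty acid lists were 0.56 and 0.40 without quercetin arrays 2 and 6, above their values on all 12 arrays. Over the single omissions these medians ran from 0.30 to 0.56 and from 0.19 to 0.42. The lowest came without Western array 6 for the sterol list and without Western array 3 for the fatty acid list. The positive counts at an unadjusted p under 0.05 ran from 7 to 11 and from 8 to 9.

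The remaining lists had few or no genes at an unadjusted p under 0.05, and none of those named here passed after adjustment in limma (adjusted p from 0.884 to 0.948). Acute phase genes had 1 positive and 0 negative of 23 (Hamp2, a hepcidin gene, 1.13). A dimmer probe set of Hamp2, at a mean level of 4.39, gave 0.01. Stress genes induced by misfolded proteins or by a lack of amino acids had 1 positive and 1 negative of 27. These were Dnajb9, a chaperone of the endoplasmic reticulum (0.57), and Psat1, an enzyme of serine synthesis (-0.65). Female-biased liver genes had 1 positive of 15 (Hao2, 0.87) and male-biased ones 1 negative of 18 (C6, a complement component, -0.56). Genes at that p made up 4.35% of the acute phase, 7.41% of the stress, 6.67% of the female-biased and 5.56% of the male-biased list. Over all genes the share was 5.06%, so nothing is read from these counts. The female-biased count was 5 without quercetin array 6, 4 without quercetin arrays 2 and 6, 3 without quercetin array 1 and 2 without Western array 3 or 4 or quercetin array 3. Its median of 0.15 was 0.33 without quercetin array 6. Counts of this size moved with many single arrays: over the omissions they ran from 0 to 2 for the positive acute phase genes, 0 to 3 and 0 to 2 for the positive and negative stress genes, and 0 to 2 for the negative male-biased genes. Proliferation genes (0 of 21) and the markers of hepatocytes, cholangiocytes, T cells, neutrophils, erythroid cells, adipocytes, skeletal muscle and exocrine pancreas had none on all 12 arrays.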

How the data were processed

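Biotin-labelled liver RNA had been hybridised to Affymetrix mouse arrays. The deposited values are intensity signals on a linear scale, 1 per probe set, and how the authors derived them from the scans is not given in the sources used here. After removal of 64 control probe sets, the remaining 45037 signals had 16 added, were log2 transformed and then brought to one distribution over all 18 arrays (quantile normalization). Of these, 34945 had 1 gene symbol, 932 several and 9160 none, and each of 18193 genes was read from its brightest probe set, with no filter on dim genes. No coordinates are given.

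A limma 3.58.1 model (R 4.3.3) with 1 mean for each of the 4 combinations of diet and replicate set was fitted to the 12 arrays (8 residual degrees of freedom), and contrasts were tested two-sided with Benjamini-Hochberg adjustment over all genes within each contrast. An adjusted p under 0.05 was called. The script was tested on simulated data. The number of arrays limits the precision. P-values measure the spread between mice, and cages were not modelled. Figures used matplotlib 3.10.9 in Python 3.11.15.

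The comparison and the 35 gene lists were chosen with earlier results of these data known. The naming rule took called genes at or above the 25th percentile of level (log2 4.56), filled to 10 a direction by smallest p, up to 5 a direction for the other contrasts (3 where none was called), and up to 4 per list by smallest interaction p. A part of these is given. Whether equal replicate numbers paired the samples was checked by correlating deviations from group means: 1 of 6 numbers exceeded 0.1 (range -0.36 to 0.19), so they were not taken as pairs. Alternatives covered scaling, pseudocount, probe set choice, dim genes, samples in the fit, covariates and single arrays, and leaving out quercetin arrays 2 and 6 was added after seeing the data.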

Additional observations from a re-analysis of the deposited data

Results flagged for a closer look

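In 132 groups of 6 arrays (the named genes and list levels in each diet group), 4 had an end value far from the rest by Dixon's criterion, where chance gives about 1 in 20. Cyp2b10 was 5.35 on Western array 3, where the next was 4.99. Asl was 10.29 on Western array 1, where the next was 10.57. Nav2 was 7.12 on Western array 2, where the next was 7.37. The mean level of the neutrophil markers was 5.62 on quercetin array 2, where the next was 5.15. The quercetin difference in Zbtb16 differed between the replicate sets by 1.90 on the log2 scale (limma, adjusted p = 0.0385).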

How the results depend on the processing

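The count of 1 gene for the interaction became 0 with the values as deposited, with a pseudocount of 1, with probe sets averaged per gene, with all 3 diet groups in the fit, with the actin ratio as a covariate and without quercetin arrays 2 and 6. It became 2 with array medians centred and with an intensity trend, where Lpin1 was added (adjusted p = 0.042 and 0.0298), and over single omissions it ran from 0 to 1 (without quercetin array 6 the gene was Lpin1). The interaction of Zbtb16 was positive in all 24 alternatives. The quercetin difference in replicates 1 to 3 gave 1 gene (Tal2) with a pseudocount of 1 and 0 to 1 over single omissions, where Western array 2 left out gave Tcl1b3. That in replicates 4 to 6 gave 0 to 1, with Zbtb16 called without quercetin array 3 and Lpin1 without quercetin array 6. The Western sets gave 8 genes with a pseudocount of 64 and 0 to 5 over single omissions, with 5 without Western array 2 and 1 without Western array 5. The count of 23 between the quercetin sets became 11 as deposited, 43 with medians centred, 2 with a pseudocount of 1, 87 with 64, 71 with all groups, 45 with the trend, 6 with the actin ratio, 1 without quercetin arrays 2 and 6 and 1 to 27 over single omissions. The correlation of both quercetin differences was -0.155 with a pseudocount of 64, -0.189 with the actin ratio and -0.164 to 0.0613 over single omissions. The sign turned for 2 values: Apob, a hepatocyte marker, had 0.0195 as the mean of its probe sets (-0.31 from its brightest), and the interaction of the array median signal (-0.104 on all arrays) ran from -0.225 to 0.016 over single omissions.

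With the replicate number as a block, which these numbers do not support, the interaction called 1 gene, Lpin1 (adjusted p = 0.00288), and not Zbtb16 (0.194). Replicates 4 to 6 then gave 1 gene for quercetin, also Lpin1. The Western and quercetin set differences could not be fitted with the block. No sample correlated best with its own number (0 of 6). The median 95% interval of a gene's interaction, unadjusted, reached 0.44 to either side, while after adjustment Lpin1 at 2.42 was not called. The genes named here for a single alternative, and leaving out quercetin arrays 2 and 6, were chosen after values were seen.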
